A study of Rattus norvegicus with 24 samples.

Results

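The levels of 8 genes of the p53 response and of apoptosis were examined in brain RNA: Cdkn1a, Mdm2, Ccng1, Gadd45a, Bax, Bcl2, Bcl2l1 and Casp8. A member was the assembled locus that carried its symbol, and where several loci shared a symbol the locus with the highest mean over all libraries was used. All 8 were found, among 25650 gene names in the table. Bcl2l1 had a second locus of very low count, and the other 7 members had 1 locus each.

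The transcription factor p53 is stabilised after DNA damage and other stresses and switches on genes that stop the cell cycle, repair DNA or start apoptosis. In the mitochondrial route to apoptosis, members of the BCL2 family either protect the outer mitochondrial membrane or permeabilise it, and in the death receptor route a ligand at the cell surface activates an initiator caspase. After injury of the brain both routes are known to operate in neurons, and cells that divide or react, such as microglia and astrocytes, also express many p53 targets.

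The rats were adult Sprague-Dawley males, and their RNA was collected 3 months after lateral fluid-percussion injury, a pressure pulse onto the exposed dura that gives a cortical lesion (TBI, 6 rats), or after a sham operation with anaesthesia and craniectomy and no impact (6 rats). Poly-A RNA of the perilesional cortex and of the thalamus on the side of the injury was sequenced from every rat, which gave 24 libraries in 4 groups of 6. The sequenced TBI rats came from animals chosen by magnetic resonance imaging for a chronic inflammatory rim around the lesion, so they do not stand for all injured rats. Each tissue piece was bulk tissue, in which a change in the number of cells of a type and a change in RNA per cell cannot be told apart.

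The deposited values were size-factor normalized counts, on a scale where 1 sequenced fragment was worth 0.688 to 1.25 units, and the libraries held 30568927 to 54608922 fragments. Values are compared between groups for the same gene, since counts of different genes also depend on transcript length. Casp8, the gene of lowest count, still had 49 to 161 fragments in every library. A gene was called when its adjusted p from limma on log2(normalized count + 1), with Benjamini-Hochberg adjustment over all named loci tested, was under 0.05. Fold changes below are log2 differences between TBI and sham on that scale, with their standard error (SE).

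The upstream sequences of 3 members that carry a p53 half-site, the degenerate decamer to which a p53 dimer binds, are shown here because the 8 genes were grouped as p53 targets and apoptosis genes. RefSeq promoter entries of the assembly GRCr8 were found for 6 of the 8 members, Cdkn1a, Mdm2, Ccng1, Gadd45a, Bcl2 and Bcl2l1 (9 entries, 4 of them for Bcl2l1). The search covered 250 bases before and 50 bases after the start on both strands, and the motif reads the same on both. The 250 bases before the start follow, 5′ to 3′ in the direction of the gene, with the half-site in capitals.
Cdkn1a, chr20:7150682-7150931, plus strand: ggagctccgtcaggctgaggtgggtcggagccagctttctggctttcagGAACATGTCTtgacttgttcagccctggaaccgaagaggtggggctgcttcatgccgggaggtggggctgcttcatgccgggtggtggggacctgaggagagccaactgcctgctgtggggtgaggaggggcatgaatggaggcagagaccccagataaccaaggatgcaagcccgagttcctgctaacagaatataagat
Ccng1, chr10:25684877-25685126, minus strand: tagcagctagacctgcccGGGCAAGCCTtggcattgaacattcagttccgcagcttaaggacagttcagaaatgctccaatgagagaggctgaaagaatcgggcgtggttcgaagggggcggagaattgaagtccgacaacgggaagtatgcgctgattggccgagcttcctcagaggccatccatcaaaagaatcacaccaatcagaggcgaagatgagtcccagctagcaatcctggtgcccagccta
Gadd45a, chr4:97486800-97487049, minus strand: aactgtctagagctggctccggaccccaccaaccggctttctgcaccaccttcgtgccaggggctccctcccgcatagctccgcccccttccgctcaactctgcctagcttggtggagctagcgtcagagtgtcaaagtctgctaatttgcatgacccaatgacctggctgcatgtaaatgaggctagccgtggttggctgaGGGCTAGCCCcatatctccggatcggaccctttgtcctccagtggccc
The half-site began 201 bases before the start in Cdkn1a, 232 bases before it in Ccng1 and 48 bases before it in Gadd45a. The entries of Mdm2, Bcl2 and Bcl2l1 held no half-site within these windows. Of all 33469 promoter entries, 7.98% held at least 1 half-site, and 0.0598% held a full site of a pair of half-sites up to 13 bases apart, which no member did. Only exact matches within the searched bases were counted, so sites with a mismatch or further from the start are not covered. A match of letters is a description and does not show binding.

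**Figure D1:**
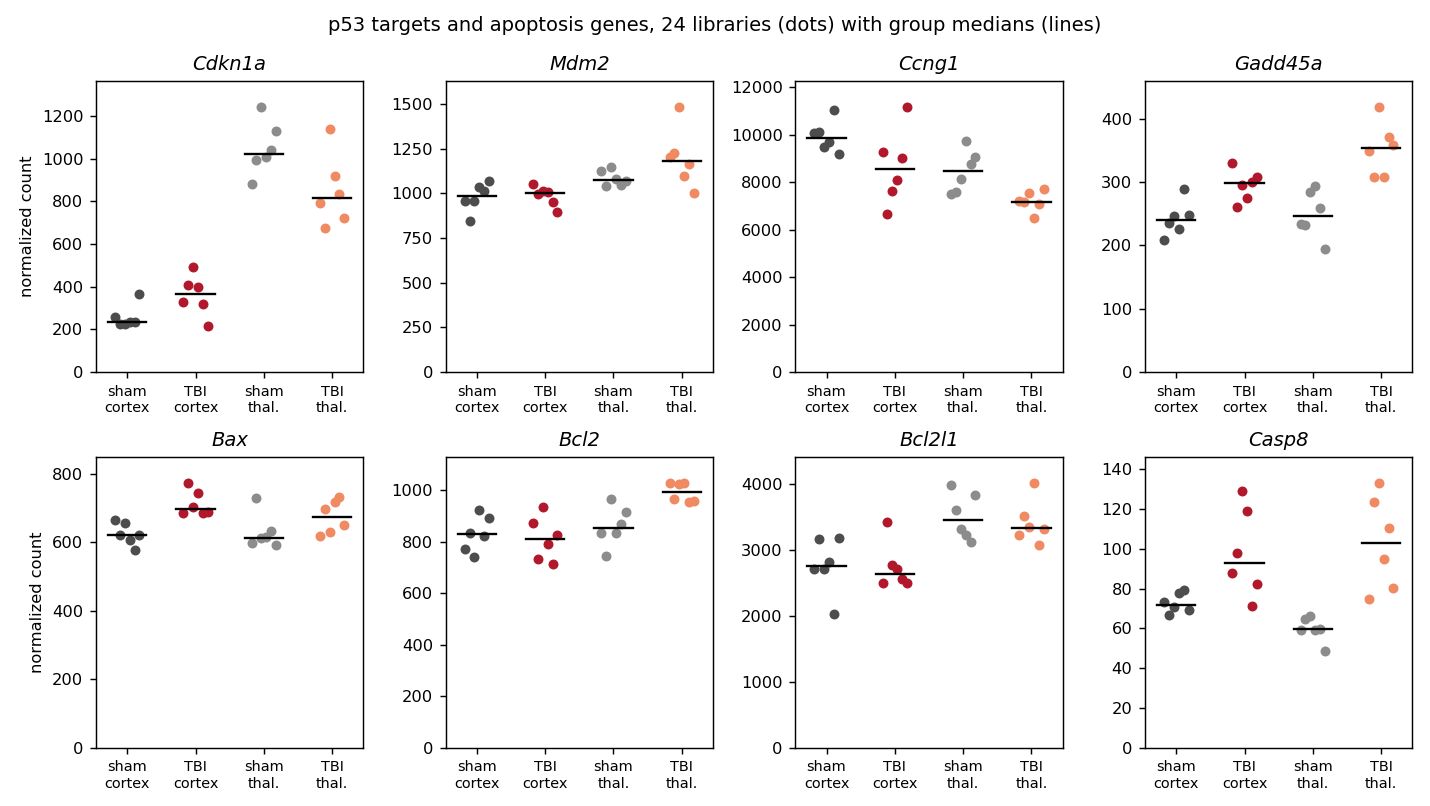
Normalized count (vertical axes, linear from 0) of each of the 8 genes in every library, with 6 dots per group and a line at the group median. Cdkn1a separates the regions most, the TBI thalamus lies above the sham thalamus for Gadd45a and Casp8 without overlap, and the 4 groups of Bcl2l1 overlap.

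In the perilesional cortex, 3 of the 8 members were higher in TBI rats than in sham-operated controls. None was called lower by limma or edgeR, and 1, Ccng1, had a lower level at an unadjusted p under 0.05 (0.0371). Bax, Gadd45a and Casp8 rose, Cdkn1a was just outside the threshold, and Mdm2, Bcl2 and Bcl2l1 had fold changes near 0. Over all 15493 loci tested in this region, 14.3% were called higher and 14.9% lower. In the ipsilateral thalamus 5 members were called: Casp8, Gadd45a and Bcl2 rose, and Cdkn1a and Ccng1 fell. There 14.5% of 15564 loci were called higher and 20.9% lower. The median fold change of the 8 members was 0.10 in cortex and 0.11 in thalamus, where the medians over all tested loci were -0.01 and -0.02. The TBI and sham libraries did not overlap for 1 member in cortex (Bax) and for 2 in thalamus (Casp8 and Gadd45a), beside 12.5% and 18.2% of all tested loci.

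Cdkn1a encodes p21, the inhibitor of cyclin-dependent kinases through which p53 arrests the cell cycle, and its locus was listed at chr20:8592436-8602879 (Rnor_5.0). In the perilesional cortex its normalized count was 224 to 367 in sham rats, with a median of 234, and 218 to 493 in TBI rats, with a median of 364. In the thalamus it was 883 to 1241 in sham rats, with a median of 1025, and 674 to 1142 in TBI rats, with a median of 815. In cortex 3 TBI libraries lay above every sham library and 1, rat 63, lay below them all, while in thalamus 4 TBI libraries lay below every sham library. The log2 fold change in cortex was 0.47 (SE 0.17, 95% interval 0.10 to 0.83, limma adjusted p = 0.0510). The cortical value passed the threshold without the library of sham rat 55, the highest control (limma adjusted p = 0.0165), without that of TBI rat 63 (0.00438), and under 5 other settings. Without TBI rat 45 the value was lowest, at 0.37 (limma adjusted p = 0.113). In the thalamus Cdkn1a fell by 0.32 on the log2 scale (SE 0.12, limma adjusted p = 0.0435). The thalamic call was lost without any 1 of sham rats 32, 34, 38, 50 and 55 or TBI rats 22, 24, 56 and 63, with limma adjusted p between 0.0529 and 0.0974, and with edgeR on recovered fragments (adjusted p = 0.0583). Without TBI rat 45, the highest TBI library there, the log2 fold change was lowest, at -0.41 (limma adjusted p = 0.00426).

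The TBI effect on Cdkn1a differed between the regions. The interaction contrast, the log2 fold change in thalamus minus that in cortex, was -0.79 (SE 0.22, 95% interval -1.24 to -0.33, limma adjusted p = 0.0289, 24 libraries). Cdkn1a was the 1 member of 8 called, as lower in thalamus, where 2.72% of 15678 loci were called higher and 4.54% lower. Its contrast ranked 443rd from the lowest. The call was lost without the cortical library of sham rat 50 (limma adjusted p = 0.0514) or TBI rat 24 (0.0540), and without the thalamic library of sham rat 55 (0.0526) or TBI rat 24 (0.0560), with contrasts of -0.93 to -0.69 over all 24 libraries left out in turn. The other 7 members had contrasts between -0.09 (Bax) and 0.36 (Casp8), none called by limma or edgeR, with 1, Bcl2, at an unadjusted p under 0.05. For Casp8 the 95% interval was -0.07 to 0.79, for Bcl2 it was 0.04 to 0.45 (contrast 0.24, limma adjusted p = 0.135), and for Gadd45a -0.08 to 0.50.

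**Figure D2:**
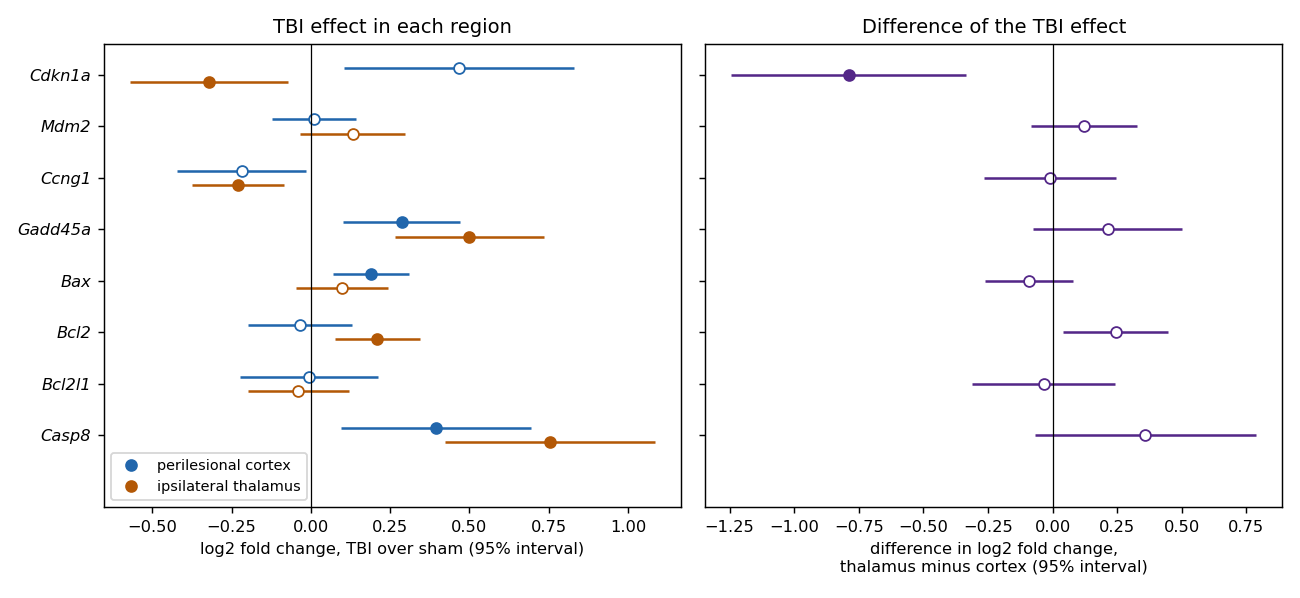
Left, log2 fold change of TBI over sham for each gene in perilesional cortex (blue) and ipsilateral thalamus (orange); right, the thalamic minus the cortical log2 fold change. Lines are 95% intervals and filled dots passed the threshold; Cdkn1a has its dots on opposite sides of 0 in the 2 regions and the 1 filled dot on the right, at -0.79.

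Mdm2, the ubiquitin ligase that p53 induces and that in turn marks p53 for destruction, was listed at chr7:60718956-60743291. Its counts in cortex were 846 to 1066 in sham rats (median 984) and 896 to 1050 in TBI rats (median 999), and the groups overlapped throughout. In thalamus they were 1040 to 1144 in sham rats (median 1073) and 1000 to 1479 in TBI rats (median 1181), with 4 TBI libraries above and 1 below every sham library. The log2 fold change was 0.01 in cortex (95% interval -0.12 to 0.14, limma adjusted p = 0.918) and 0.13 in thalamus (95% interval -0.03 to 0.30, limma adjusted p = 0.206). Without TBI rat 45, the highest library, the thalamic value was 0.07 (limma adjusted p = 0.425).

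Ccng1 encodes cyclin G1, a p53 target that takes part in the feedback on p53 through Mdm2, and was listed at chr10:25753832-25760534. In cortex its counts were 9190 to 11037 in sham rats (median 9872) and 6653 to 11139 in TBI rats (median 8550). The TBI rats spanned the widest range of the 4 groups, with 4 below every sham library and rat 63 above them all. In thalamus the sham counts were 7480 to 9748 (median 8450) and the TBI counts 6487 to 7723 (median 7174), and 4 TBI libraries lay below every sham library. Ccng1 fell by 0.23 on the log2 scale in thalamus (SE 0.07, limma adjusted p = 0.0162), and this call held with each of the 12 libraries left out in turn. The value in cortex was -0.22 (95% interval -0.42 to -0.01, limma adjusted p = 0.0988), and it was called without TBI rat 63 (adjusted p = 0.00936).

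Gadd45a, a stress-induced protein that slows the cell cycle and takes part in DNA repair, was listed at chr4:162568470-162570782. Its cortical counts were 209 to 289 in sham rats (median 241) and 261 to 330 in TBI rats (median 298), with 4 TBI libraries above every sham library. Its thalamic counts were 195 to 294 in sham rats (median 247) and 308 to 418 in TBI rats (median 354), so that every TBI library was above every sham library. Gadd45a rose in both regions, by 0.29 in cortex (SE 0.09, limma adjusted p = 0.0229) and by 0.50 in thalamus (SE 0.11, limma adjusted p = 0.00291). The cortical call was lost without sham rat 26 (adjusted p = 0.0566), sham rat 38 (0.0513) or TBI rat 22 (0.0547), and the thalamic call held in all 12 leave-one-out fits.

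Bax, the BCL2 family member that opens pores in the outer mitochondrial membrane and is a p53 target, was listed at chr1:102530096-102536167. In cortex its counts were 578 to 663 in sham rats (median 621) and 684 to 772 in TBI rats (median 695). The groups did not overlap, and the rise was small: 0.19 on the log2 scale, a ratio of 1.14 (SE 0.06, limma adjusted p = 0.0204). It was called in all 12 leave-one-out fits. In thalamus the counts were 592 to 727 in sham rats (median 613) and 619 to 733 in TBI rats (median 672), with a log2 fold change of 0.10 (95% interval -0.05 to 0.24, limma adjusted p = 0.283).

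Bcl2, the founding member of the family, keeps the mitochondrial membrane closed and was listed at chr13:31753393-31920764. In thalamus its counts were 745 to 965 in sham rats (median 851) and 955 to 1027 in TBI rats (median 994), with 4 TBI libraries above every sham library. Bcl2 rose there by 0.21 (SE 0.06, limma adjusted p = 0.0168), with the call kept in all 12 leave-one-out fits. The 6 TBI values had the smallest spread of any group of this gene, with a coefficient of variation of 3.67% beside 8.39% to 10.4% in the other groups. In cortex the counts were 740 to 923 in sham rats (median 828) and 712 to 936 in TBI rats (median 809), and the log2 fold change was -0.03 (95% interval -0.20 to 0.13, limma adjusted p = 0.771).

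Bcl2l1 encodes the protective protein BCL-XL and, by splicing, a short form that promotes death, which the gene counts do not separate. Its locus was listed at chr3:154661468-154716802. The cortical counts were 2032 to 3168 in sham rats (median 2758) and 2487 to 3425 in TBI rats (median 2634), and the thalamic counts were 3109 to 3981 (median 3453) and 3062 to 4006 (median 3328). TBI and sham overlapped in both regions. The log2 fold change was -0.01 in cortex (95% interval -0.22 to 0.21, limma adjusted p = 0.977) and -0.04 in thalamus (95% interval -0.20 to 0.12, limma adjusted p = 0.718).

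Because BAX acts against the protective proteins, the ratio of Bax to each of them was followed within libraries, as a log2 difference of normalized counts. The ratio compares libraries with each other and its absolute value also reflects transcript length. For Bax to Bcl2 the mean in cortex was -0.41 ± 0.18 (SD, n = 6) in sham rats and -0.18 ± 0.19 in TBI rats, a difference of 0.22, and 3 TBI libraries lay above every sham library. In thalamus the means were -0.45 ± 0.22 and -0.56 ± 0.13, a difference of -0.11, and 2 TBI libraries lay below every sham library. For Bax to Bcl2l1 the difference was 0.20 in cortex and 0.14 in thalamus, beside a pooled SD of 0.17 in each region. The groups overlapped in all 4 cases and no test was run on the ratios.

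Casp8, the initiator caspase of the death receptor route, was listed at chr9:65420842-65468950. Its thalamic counts were 48.5 to 66.4 in sham rats (median 59.5) and 75.1 to 133 in TBI rats (median 103), with every TBI library above every sham library. The rise of 0.75 (SE 0.15, 95% interval 0.42 to 1.09, a ratio of 1.69, limma adjusted p = 0.00183) was the highest of the 8 members in either region and was called in all 12 leave-one-out fits. In cortex the counts were 66.9 to 79.3 in sham rats (median 72.0) and 71.1 to 129 in TBI rats (median 93.1), and 5 of 6 TBI libraries lay above every sham library. The rise there was 0.39 (SE 0.14, limma adjusted p = 0.0459). It was lost without any 1 of the 6 sham rats or TBI rats 22, 24, 45 and 52, with limma adjusted p between 0.0546 and 0.103. It was also lost with limma-voom (0.0541) and with no filter on low counts (0.0775). The thalamic minus the cortical fold change of Casp8 was 0.36 and was not called (limma adjusted p = 0.321).

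The regions differed most for Cdkn1a. In every one of the 12 rats the thalamus held more Cdkn1a than the cortex, by 3.07 to 5.44 times in sham rats and by 1.64 to 3.30 times in TBI rats. The log2 difference between thalamus and cortex was 2.04 in sham rats (SE 0.16, limma adjusted p = 1.69e-11) and 1.25 in TBI rats (SE 0.16). Of the members, 2 were higher in thalamus and 1 was lower in sham rats, and 5 were higher and 1 lower in TBI rats. Over 15678 loci tested, 33.5% were higher and 27.9% lower in sham rats, and 32.7% higher and 27.9% lower in TBI rats.

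Bcl2l1 was higher in the thalamus of every rat, by 0.35 on the log2 scale in sham rats (limma adjusted p = 0.00227) and 0.32 in TBI rats (limma adjusted p = 0.00531). Ccng1 was lower in the thalamus of 5 of 6 rats in each group. Its log2 difference was -0.23 in sham rats (limma adjusted p = 0.0229, lost without the cortical library of sham rat 50, 0.0584, or the thalamic library of sham rat 26, 0.0612, or 32, 0.0574) and -0.25 in TBI rats (limma adjusted p = 0.0179, lost without the cortical library of rat 63, 0.0641). Mdm2 was higher in the thalamus of all 12 rats, by 0.27 in TBI rats (limma adjusted p = 0.00175) and by 0.15 in sham rats. The value in sham rats was not called without pairing (limma adjusted p = 0.0686) and was called when the rat was entered as a block (limma adjusted p = 0.0418). Without pairing it was also called when the cortical library of sham rat 55 (0.0431) was left out, at a difference of 0.17, or when the thalamic library of TBI rat 45 (0.0289) or 63 (0.0475) was left out, at a difference of 0.15.

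Bcl2 and Gadd45a were higher in the thalamus of all 6 TBI rats. The log2 difference was 0.29 for Bcl2 (limma adjusted p = 0.000738) and 0.25 for Gadd45a (limma adjusted p = 0.0317). The call for Gadd45a was lost without the cortical library of TBI rat 24 (0.0754) or 52 (0.0634) or the thalamic library of TBI rat 45 (0.0868), 56 (0.0612) or 63 (0.0520). In sham rats the differences were 0.05 for Bcl2 (95% interval -0.09 to 0.19) and 0.04 for Gadd45a (95% interval -0.17 to 0.24). Casp8 was lower in the thalamus of all 6 sham rats, with an uncalled log2 difference of -0.29 (95% interval -0.59 to 0.01, limma adjusted p = 0.0922), and was higher in 3 of 6 TBI rats. The log2 difference of Bax between regions was 0.01 in sham rats and -0.08 in TBI rats.

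**Figure D3:**
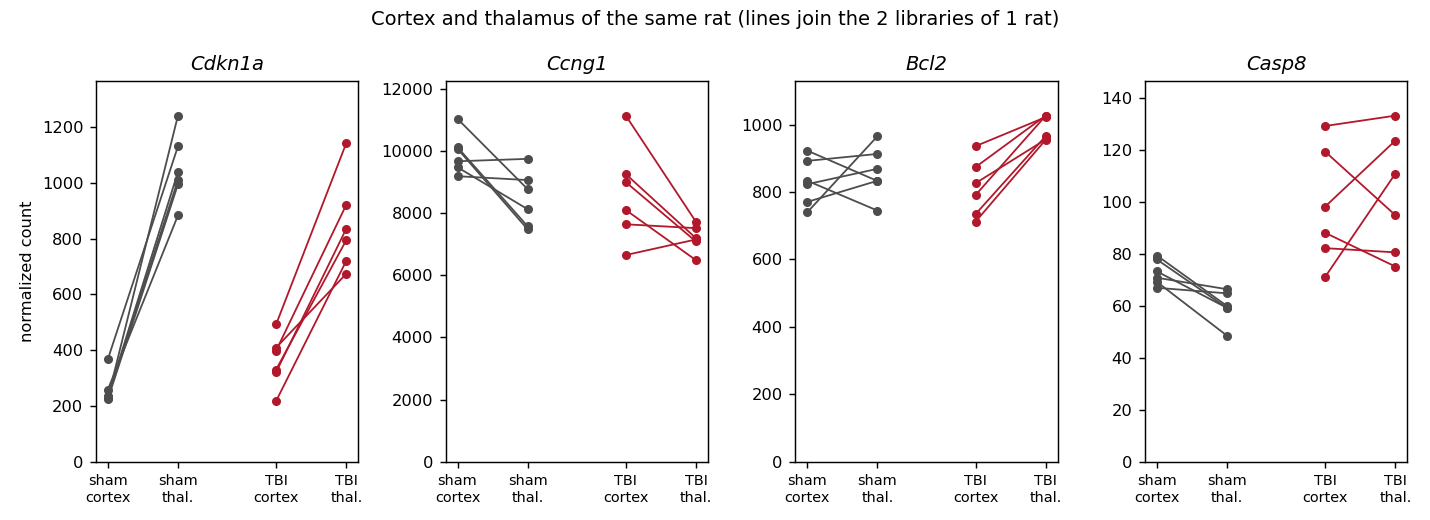
Normalized count (linear axes from 0) of 4 genes in the cortex and thalamus of each rat, with a line joining the libraries of 1 rat (sham grey, TBI red). Every Cdkn1a line goes up from cortex to thalamus, all 6 TBI lines of Bcl2 go up, all 6 sham lines of Casp8 go down, and 3 of 6 TBI lines of Casp8 go up.

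Within groups the 8 genes did not vary as 1 block. After subtraction of the 4 group means, 16 of the 28 pairs had a Pearson r above 0 over the 24 libraries, and the median r was 0.09. The pairs over 0.5 were Cdkn1a with Mdm2 (0.54) and Mdm2 with Casp8 (0.54). In the TBI thalamus rat 45 had the highest counts of Cdkn1a, Mdm2 and Casp8 (1142, 1479 and 133). In the TBI cortex rat 63 had the lowest counts of Cdkn1a and Mdm2 (218 and 896). The r of these pairs without such libraries was not computed. The pairs under -0.5 were Bcl2l1 with Gadd45a (-0.66), Ccng1 with Bcl2l1 (-0.66), Ccng1 with Bax (-0.52), Cdkn1a with Ccng1 (-0.52) and Bax with Bcl2 (-0.51). Genes of 1 library share its RNA quality and scaling and the 24 libraries come from 12 rats, so these values are descriptions.

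**Figure D4:**
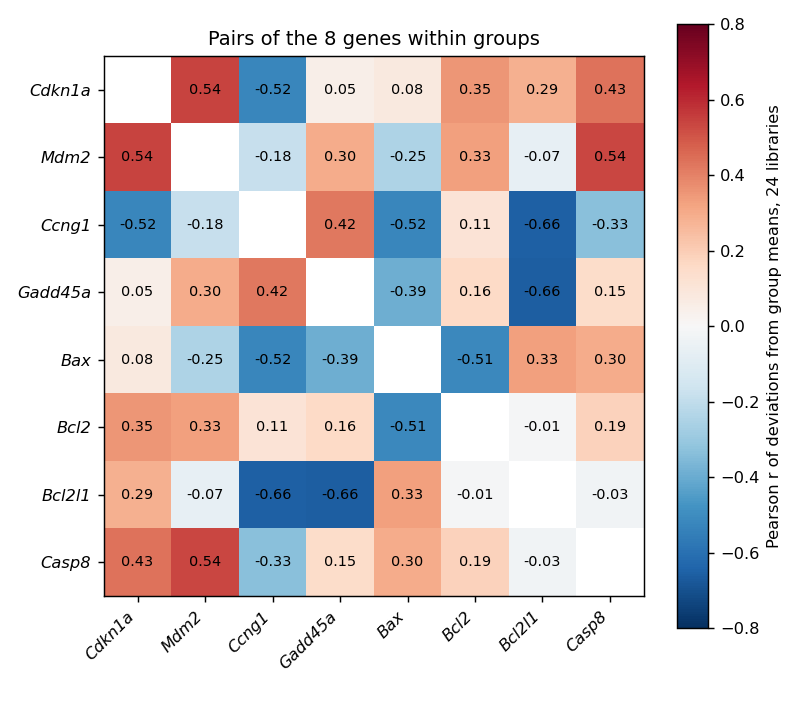
Pearson r for each pair of the 8 genes, from log2(normalized count + 1) after subtraction of the group means, over 24 libraries (red above 0, blue below). Cdkn1a, Mdm2 and Casp8 form the block of highest values, 0.43 to 0.54, and Bcl2l1 has its lowest values with Ccng1 and Gadd45a, both -0.66.

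Among 15677 other loci, those whose deviations from the group means were most like each member's were RGD1310127 (r = 0.84) and Efnb1 (0.82) for Cdkn1a, Ston1 (0.81) and Klf10 (0.81) for Mdm2, Zfand5 (0.96) and Pcmtd1 (0.94) for Ccng1, and Ttc30b (0.79) and Snx18 (0.78) for Gadd45a. For the apoptosis genes they were Ccdc12 (0.85) and Rps23 (0.79) for Bax, Dock11 (0.76) and Kcna3 (0.71) for Bcl2, Ralgds (0.92) and Arhgap39 (0.89) for Bcl2l1, and Filip1l (0.80) and Uaca (0.78) for Casp8. These are the highest of many values over 24 libraries and are given as descriptions.

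Around the 8 genes, 7 lists of the pathway were examined, with counts read against the background shares above. The lists share genes, so their counts are not separate observations. The other p53 targets share Fas and Tnfrsf10b with the death receptor list, Bbc3 and Pmaip1 with the BCL2 family list, and Apaf1 with the apoptosome list. Of 14 tested regulators of p53, 2 were higher and 1 lower in cortex, and 4 were higher and 1 lower in thalamus. Chek2, a kinase of the DNA damage checkpoint, rose in both regions, from 30.2 ± 4.22 to 44.8 ± 4.96 (SD, n = 6) in cortex and from 36.8 ± 9.44 to 67.3 ± 13.7 in thalamus. Chek1, the related checkpoint kinase, rose by 0.57 in thalamus, and Usp7, a deubiquitinase that acts on Mdm2 and p53, fell by 0.18 in cortex. In the other region their fold changes were 0.09 for Chek1 and -0.06 for Usp7, neither called.

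Of 28 other p53 targets, 2 were higher and 2 lower in cortex and 6 were higher and 1 lower in thalamus, with median fold changes of 0.10 and -0.01. Fas, the death receptor, rose in both regions without overlap, which the rule for naming list genes, given below, required. Its counts were 31.1 to 55.97 in sham and 60.0 to 119 in TBI cortex, and 22.8 to 36.8 in sham and 58.2 to 112 in TBI thalamus, with fold changes of 0.94 and 1.60. Rps27l, a ribosomal protein homologue induced by p53, rose by 0.50 in thalamus, and Zmat3, an RNA-binding p53 target, fell by 0.23 in cortex. In the other region the fold changes were 0.21 for Rps27l and -0.17 for Zmat3, neither called.

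The other BCL2 family genes moved in both directions. In cortex 4 of 12 rose and 4 fell, and in thalamus 3 rose and 6 fell. Among pro-apoptotic members, Bmf rose in both regions without overlap, by 0.69 in cortex, with counts of 309 to 425 in sham and 460 to 633 in TBI rats, and by 0.67 in thalamus. The naming rule required the lack of overlap in cortex. Bid, which is cut by caspase-8, rose by 0.85 in thalamus, with counts of 164 to 200 and 286 to 371, and by 0.16 in cortex. Bbc3, named here after its values were seen, rose by 0.65 in cortex (limma adjusted p = 0.0171), with 4 TBI libraries above every sham library. Its thalamic value of 0.28 was not called (limma adjusted p = 0.137). Other pro-apoptotic members fell in thalamus, and are named here after their values were seen: Bok by 0.83, with counts of 5190 to 7476 in sham and 3274 to 4044 in TBI rats, Pmaip1 by 0.47, Bnip3 by 0.26 and Bad by 0.25. Bnip3 also fell by 0.41 in cortex, where Bok, Pmaip1 and Bad were not called. Among protective members, Bcl2a1 rose by 1.19 in thalamus and 0.56 in cortex, and Bcl2l2 fell by 0.29 in thalamus and 0.21 in cortex. Of 18 other caspase and apoptosome genes, 3 were higher and 1 lower in cortex and 2 were higher and 5 lower in thalamus. Birc3, an inhibitor of apoptosis, rose by 0.79 in cortex, and Dffa, which holds the apoptotic nuclease inactive, fell by 0.41 in thalamus. In the other region the fold changes were 0.61 for Birc3 (limma adjusted p = 0.0504) and -0.13 for Dffa, neither called.

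The death receptor list, to which Casp8 belongs by function, had 6 of 12 genes higher and 6 not called in cortex, and 7 higher and 1 lower in thalamus, with median fold changes of 0.32 and 0.46. Ripk3, a kinase of necroptosis, rose by 1.21 in thalamus, from 48.2 ± 7.04 to 113 ± 14.7, and by 0.71 in cortex. Mlkl, its pore-forming partner, rose by 0.88 in cortex, from 27.9 ± 3.71 to 52.7 ± 11.1, and by 0.91 in thalamus. Of a cell cycle list that holds CDK inhibitors and cyclins, and also Cdk2, Cdk4, Cdk6, Rb1, Gadd45b and Gadd45g, 5 of 14 genes were higher and 1 lower in cortex and 4 were higher and 1 lower in thalamus. The 4 higher in thalamus were Ccng2, Cdk2, Cdk4 and Rb1. Cdkn2b, which encodes the inhibitor p15, rose by 0.87 in cortex and had an uncalled value of -0.29 in thalamus. Cdk4 rose by 0.29 in cortex and 0.21 in thalamus, and Ccne1 fell by 0.28 and 0.55. Ccng2, the paralogue of Ccng1, rose by 0.29 in thalamus and had an uncalled value of -0.03 in cortex. Of 12 proliferation genes, 6 were higher and 1 lower in cortex and 3 were higher and 9 not called in thalamus. Mcm3, a subunit of the replicative helicase, rose by 0.94 in cortex and 0.73 in thalamus, and Pcna, the replication clamp, rose by 0.26 in thalamus, with an uncalled value of 0.11 in cortex.

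Cell type markers moved in the same comparisons. Microglia and macrophage markers were higher for 13 of 14 genes in cortex and 14 of 14 in thalamus, and their summed normalized count was 17261 to 18314 in sham and 24489 to 27629 in TBI cortex, and 18429 to 23930 in sham and 37371 to 48120 in TBI thalamus. Neuronal markers were lower for 10 of 12 genes in each region, with sums of 428413 to 466214 and 302118 to 397151 in cortex and 318975 to 374221 and 208242 to 266720 in thalamus. Astrocyte markers were higher for 5 of 9 genes in each region and lower for 2 in cortex, with sums of 373808 to 394864 in sham and 406792 to 451551 in TBI cortex and 283942 to 315993 and 404328 to 465044 in thalamus. Genes of high count dominate these sums. In cortex the mean of Gfap went from 12344 in sham to 59944 in TBI rats. The 2 lower genes there, Slc1a2 and Aldoc, went from 185200 to 160246 and from 49244 to 42475, so the higher sum is no shift of the whole list. No marker of these 3 lists was at or under 3 fragments. The part of these shifts in the values of the 8 genes was not tested.

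Oligodendrocyte markers were higher for 3 of 9 genes in cortex and 1 of 9 in thalamus, oligodendrocyte precursor markers for 3 and 1 of 4, and endothelial markers for 2 and 5 of 9. Of 4 erythroid markers 0 were called in each region by limma or edgeR, and 0 had an unadjusted p under 0.05. Of 8 lymphocyte loci, 3 reached the filter in cortex, with 0 called by limma or edgeR and 0 at an unadjusted p under 0.05, and 1 in thalamus, Cd8b, which passed the filter only through the TBI rats, at 10.3 to 37.9 beside 0 to 0.989 in sham rats, so that its call carries no weight for the list. In cortex 1 thalamic neuron marker was higher and 1 lower, and 4 of 9 cortical neuron markers were lower, and in thalamus 4 of 6 thalamic and 3 of 7 cortical neuron markers were lower. Of 7 choroid plexus markers 0 were called by limma or edgeR in each region (1 in cortex and 0 in thalamus at an unadjusted p under 0.05), but their sum stood far apart in single libraries. It was 260583 in the thalamus of TBI rat 45 beside at most 2113 in the other 5 TBI rats. In the sham thalamus it was 108414 in rat 50 and 68677 in the next library, and the lowest was 702. In cortex it was 31743 in TBI rat 45, beside at most 831 in the other TBI rats, and 23422 in sham rat 26 and 11082 in the next sham library. Without the thalamic library of sham rat 50 the thalamic call of Cdkn1a was lost (limma adjusted p = 0.0697), and without the cortical library of sham rat 26 the cortical calls of Casp8 (limma adjusted p = 0.0736) and Gadd45a (0.0566) were lost. These losses were not particular to the 2 libraries. Of the 12 libraries left out in turn, 9 lost this call of Cdkn1a, 10 that of Casp8 and 3 that of Gadd45a. Without both libraries of rat 45 the cortical call of Casp8 was lost (limma adjusted p = 0.103) and so was the difference of Gadd45a between the regions of TBI rats (limma adjusted p = 0.108), while Mdm2 in sham rats was called between regions (limma adjusted p = 0.0323). The thalamic log2 fold change of Cdkn1a without rat 45 was -0.41 (limma adjusted p = 0.00426).

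**Figure D5:**
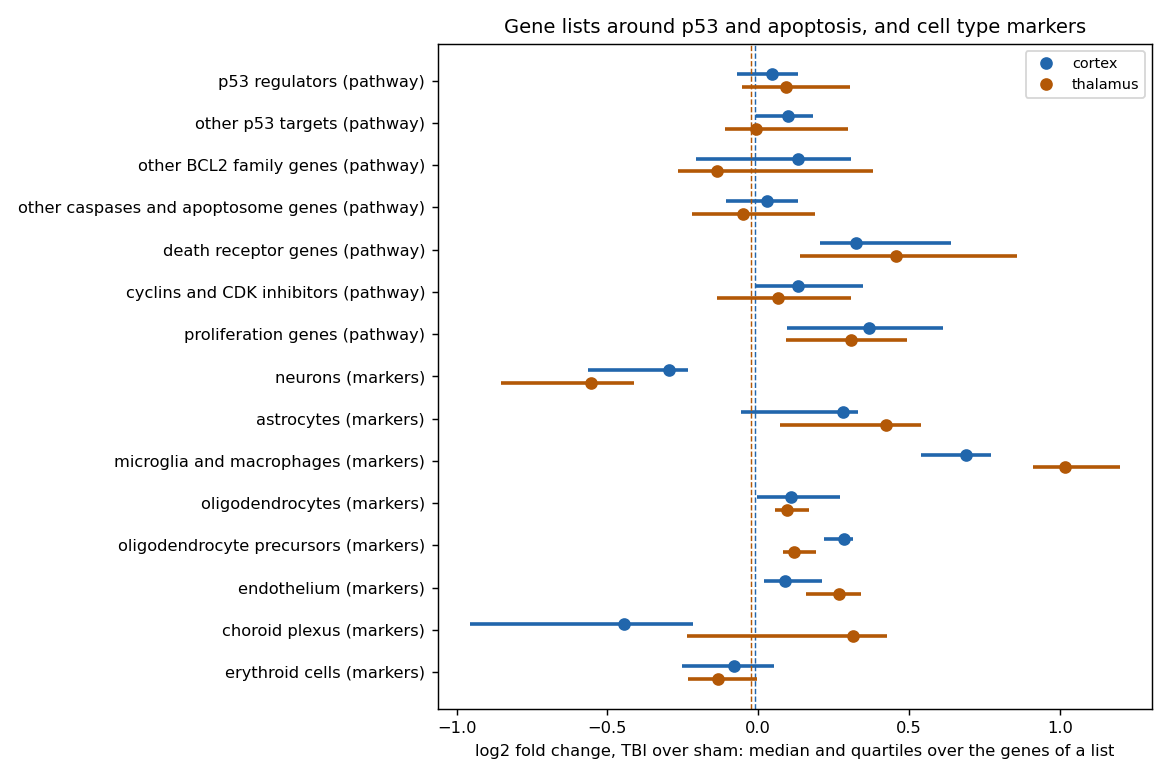
Median (dot) and quartiles (line) of the log2 fold change of TBI over sham over the tested genes of each pathway or marker list, in cortex (blue) and thalamus (orange), with dashed lines at the median of all loci tested, -0.01 and -0.02. The medians of the death receptor and proliferation lists lie above 0 in both regions and below those of the microglia markers, 0.69 and 1.02. Other lists also have medians above 0 in both regions, among them the astrocyte (0.28 and 0.42), oligodendrocyte precursor (0.28 and 0.12) and endothelial markers (0.09 and 0.27). The neuronal medians are -0.30 and -0.56.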

How the data were processed

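RNA of 24 tissue samples from 12 rats was sequenced by the authors (TruSeq stranded, oligo-dT selection, NextSeq 500). Per the labels and the methods of the study, reads were aligned with TopHat2 2.0.11 and Bowtie2 2.2.2 and assembled with Cufflinks 2.2.1, and Cuffdiff compared the groups. The methods name RGSC3.4 as genome, while the processing notes name Rnor_5.0, whose extent the coordinates of the table fit, and coordinates are given as deposited. The deposited values are a signal: per-gene counts scaled by the authors with 1 size factor a library. In every library the values were whole multiples of 1 step (100% within a tolerance of 0.1 fragments, checked up to 5000 fragments), so whole fragments were recovered. In 1 library, whose step is near 1, rounding gives the same result. Of 42334 loci, 37.1% had no gene name. They held 1.90% to 2.23% of the values and were not tested.

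Values were tested as log2(normalized count + 1) with limma 3.58.1 (trend, R 4.3.3) over named loci with a mean of at least 10, as 6 against 6 libraries within a region, or over all 24 libraries for regions and the interaction, adjusted by Benjamini-Hochberg, and called under 0.05. The count test, edgeR 4.0.16 (quasi-likelihood) on the recovered fragments, called 4533 loci in cortex and 5481 in thalamus. Both regions came from the same rats. Deviations of the libraries of 1 rat had a median correlation of 0.187 (0.00393 to 0.569, over 0.1 in 10 of 12 rats), beside -0.0332 for different rats, and the fit with the rat as a block is an alternative. Within a region each library comes from a separate rat, so those p-values measure the spread between rats, while in fits of 24 libraries each rat gives 2. The tests within regions and of the interaction were tried on simulated data. Those data had the same dispersion at every locus, no difference between regions and no likeness between libraries of a rat. The trial therefore does not cover the comparison of regions or the pairing.

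Members and lists were chosen with earlier results of these data known. Named beside the 8 members were, from each pathway list and region, up to 2 called genes of largest absolute fold change whose groups did not overlap, and the 2 loci most like each member within groups. Some genes that this rule would name are not reported here. List genes were also matched by older names. Ep300, Tigar, Mcl1, Bcl2a1d, Hrk, Bcl2l11, Cflar, Cdkn2d, Ccnd2, Mbp, Lhfpl3, Cd79a and Neurod2 were not analysed here. Alternatives were the scaling, the filter, the pseudocount, limma-voom, the sum over the loci of a gene, 1 fit of all libraries, a threshold of 0.01, leaving out each library, and, added after seeing the data, edgeR and leaving out rat 45.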

Additional observations from a re-analysis of the deposited data

Results flagged for a closer look

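Cdkn1a in the sham cortex had 1 library, rat 55, far above the other 5, with a gap of 0.76 of the group's range. Bax in the sham thalamus had 1 such library, rat 32 (0.69), and Bcl2l1 in the TBI cortex another, rat 24 (0.70). The gap was past Dixon's critical value in these 3 of 32 groups of 6 libraries, and chance alone is known to flag about 1 in 20.

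The TBI effect on Cdkn1a differed between thalamus and cortex by -0.79 on the log2 scale by a test of the difference itself (limma interaction, adjusted p = 0.0289).

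The second Bcl2l1 locus, at chr1:173950471-173950984 with a span of 513 bases, was not used above. Its median in the TBI thalamus was 4.85 normalized counts (3 to 8 fragments per library), above every sham thalamus value (at most 3.96, 1 to 4 fragments). In cortex the medians were 2.73 in sham and 2.41 in TBI rats. The difference was not tested, and 5 of 6 TBI thalamus libraries held more than 3 fragments there.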

How the results depend on the processing

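With 1 library left out in turn, the number of called members ranged from 1 to 5 in cortex, from 4 to 5 in thalamus, from 0 to 1 for the difference between regions, from 2 to 4 between regions in sham rats and from 5 to 6 in TBI rats, and the number of called loci from 3671 to 5219, 4522 to 5442, 813 to 1329, 9307 to 9770 and 9169 to 9568. In cortex 1 member was past the threshold without sham rat 26, sham rat 38 or TBI rat 22, and 5 passed it without TBI rat 63. At a threshold of 0.01 the called loci were 2436 in cortex, 3429 in thalamus and 404 for the difference, and the called members 0, 2 and 0. All members called in cortex have adjusted p of at least 0.0204.

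Upper quartile scaling moved the split of calls in thalamus from 2259 higher and 3257 lower to 2635 and 2433, and there Cdkn1a was not called (limma adjusted p = 0.0662). Cdkn1a in thalamus was also not called with no filter (0.0545) or with all 24 libraries in 1 fit (0.109). Cdkn1a in cortex was called with TMM (0.0492) or upper quartile scaling (0.0456), a filter at a mean of 50 (0.0497), all 24 libraries in 1 fit (0.0274) and edgeR (0.0404). Gadd45a between the regions of TBI rats was not called with TMM scaling (0.0503). The cause of these changes was not tested.

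With the rat as a replicate block the difference between regions gave 1301 called loci (1138 without), and the comparison of regions gave 9901 in sham rats and 9775 in TBI rats. The block changed no member's call except that of Mdm2 between regions in sham rats, at a log2 difference of 0.15.

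Uncalled fold changes near 0 changed sign. Under upper quartile scaling these were Bcl2l1 in cortex (0.00834) and in thalamus (4.6e-05), Ccng1 for the difference (0.0146) and Bax between regions in sham rats (-0.00254, and -0.00899 with TMM). With 1 library left out they were, in cortex, Mdm2 (-0.0304 to 0.0373), Bcl2 (-0.0764 to 0.00246) and Bcl2l1 (-0.0909 to 0.0372), for the difference Ccng1 (-0.0826 to 0.0661) and Bcl2l1 (-0.0815 to 0.0515), and between regions Bax (-0.0318 to 0.0282) and Gadd45a (-0.0121 to 0.106) in sham rats and Casp8 (-0.0150 to 0.155) in TBI rats. The ratios of Bax moved by less than the spread between rats with pseudocounts of 0.1 and 5. Casp8 rested on the fewest fragments of the 8 genes, at least 49 per library.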
